A study of Drosophila melanogaster with 2 samples.

Results

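The genes described here encode the proteins that license DNA for replication: the MCM helicase subunits Mcm2, Mcm3, dpa, Mcm5, Mcm6 and Mcm7, and the origin recognition complex subunits Orc1, Orc2, Orc5 and Orc6. They were taken by name, 10 of the 13968 protein-coding genes annotated on the Drosophila melanogaster chromosome arms. At each gene the summit of every deposited peak was recorded if it lay inside the gene or within 500 bp of a transcription start site (TSS). A summit within 500 bp of a TSS is called a promoter summit below. The peaks came from ChIP-seq of whole prepupae, aged 24 hours, with males and females pooled. The animals belonged to 1 transgenic line carrying CG3032 with an eGFP tag at its C-terminus, and chromatin was recovered with an antibody to GFP. There was 1 group, of 2 biological replicates numbered 2 and 3. The antibody field of the labels names CG3032 itself, while their free text names GFP. The sources used here do not name the promoter of the transgene, and no untagged control sample was analysed here.

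Licensing happens before S phase. The origin recognition complex (ORC) binds DNA and, with Cdc6 and the Cdt1 protein that flies call dup, loads MCM hexamers onto the double helix, where they stay inactive until the kinases Cdc7 and Cdk2 trigger unwinding. Geminin blocks dup and so prevents a second round of loading in the same cycle. Transcription of many replication genes is tied to the cell cycle by E2F1 and its partner Dp, and in flies the factor DREF, which binds the DNA replication-related element (DRE), is also known for acting at such promoters. The ChIP-seq lists hold no measure of expression, and a whole prepupa mixes dividing, endocycling and resting cells, so a peak in few cells and a weak peak in many cells cannot be told apart.

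Sequence at the summits is shown first, because the positions of short words in it are used below. All letters are from the RefSeq copy of the dm6 assembly, on the plus strand, which is also the coding strand of these genes. The windows reach 100 bp to either side of the strongest promoter summit and stop where transcribed sequence begins, apart from the end of an E2F word at Mcm3. The sites are chr3R:8264677-8264877 for Mcm2, chr3R:10788237-10788437 for Mcm5, chrX:5323691-5323856 for Mcm3, chr3R:13964560-13964760 for Orc2 and chr2L:13829751-13829836 for Orc5. Mcm2 and Mcm5 are shown as the peaks of the IDR list, explained below, whose windows held no E2F or DRE word. The other 3 are shown for the words their windows held. Capitals mark a direct repeat at Mcm2, the Motif 1 word followed by the E2F word at Mcm3, and the DRE at Orc2 and Orc5.
Mcm2: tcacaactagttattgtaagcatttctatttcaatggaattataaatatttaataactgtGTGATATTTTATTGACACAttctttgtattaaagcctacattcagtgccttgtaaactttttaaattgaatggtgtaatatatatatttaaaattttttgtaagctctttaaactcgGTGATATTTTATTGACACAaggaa
Mcm5: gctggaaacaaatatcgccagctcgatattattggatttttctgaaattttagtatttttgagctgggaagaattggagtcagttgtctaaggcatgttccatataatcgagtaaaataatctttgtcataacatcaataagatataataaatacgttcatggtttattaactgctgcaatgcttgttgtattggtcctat
Mcm3: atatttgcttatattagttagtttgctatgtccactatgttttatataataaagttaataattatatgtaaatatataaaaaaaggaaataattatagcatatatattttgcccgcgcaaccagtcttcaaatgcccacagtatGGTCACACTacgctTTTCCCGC
Orc2: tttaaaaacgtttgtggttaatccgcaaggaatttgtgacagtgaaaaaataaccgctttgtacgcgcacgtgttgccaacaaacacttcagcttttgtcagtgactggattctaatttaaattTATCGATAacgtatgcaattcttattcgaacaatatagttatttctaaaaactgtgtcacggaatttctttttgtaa
Orc5: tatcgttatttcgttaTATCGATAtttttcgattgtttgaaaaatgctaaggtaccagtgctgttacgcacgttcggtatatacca

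The window at the Mcm2 summit was rich in A and T and carried a long repeat. A+T made up 75.6% of its 201 bp, against a mean of 64.7% over all IDR promoter summits and a range of 60.2% to 70.1% over the other 9 licensing genes. The 19 bp in capitals occurred at chr3R:8264737-8264755 and again at chr3R:8264854-8264872, 117 bp further on, with the summit between the copies. These were the 2 copies found in the genome. A repeat at least that long within the window was present at 7 of 3068 IDR promoter summits (0.228%), where the median longest repeat was 8 bp. The longest repeat was 10 bp at dpa and 7 bp at Mcm5. The repeat was searched for after the data had been seen.

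Words for the known regulators of replication genes were searched on both strands. An E2F word was any of TTTCCCGC, TTTGGCGC, TTTGCCGC and TTTCGCGC, and the DRE word was TATCGATA. From 250 bp before to 50 bp after the outermost TSS, 7 of the 10 genes held an E2F word, against 6.45% of protein-coding genes. These were Mcm2, Mcm3, Mcm5, Mcm6, Orc1, Orc5 and Orc6. With every annotated TSS counted, dpa joined them, giving 8 of 10 against 8.71%. A DRE was present at Orc2 and Orc5, which is 2 of 10 against 9.36%. Motif 1, GGTCACACT, was present at Mcm3 and Orc5 (background 6.04%), the E-box CAGCTG at Mcm6 and Orc6 (17.7%), GAGAG at Orc2 and Orc6 (29.8%) and TATAAA at 7 genes (45.9%). A match describes the letters and does not show a bound site.

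At Mcm2 the centre of the E2F word was 232.5 bp from the IDR summit, and at Mcm5 it was 222.5 bp away, in both cases downstream, past the TSS. At dpa, 2 E2F words lay 78.5 and 159.5 bp from the summit, the farther one across its second TSS. For the weak whole-series summits the distance was 0.5 bp at Orc5, 61.5 bp at Mcm3, 73.5 bp at Orc6, 88.5 bp at Mcm6 and 187.5 bp at Orc1. In 201-bp windows on the strongest promoter summit of each gene, 5 of 10 held an E2F word, which were Mcm3, dpa, Mcm6, Orc5 and Orc6. The share was 3.29% over all IDR promoter summits and 4.35% over all whole-series promoter summits. The DRE was 27.5 bp from the strongest Orc2 summit and 80.5 bp from the strongest Orc5 summit. No DRE lay in the windows of the 3 genes with an IDR summit, against 6.78% of IDR promoter summits.

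**Figure D1:**
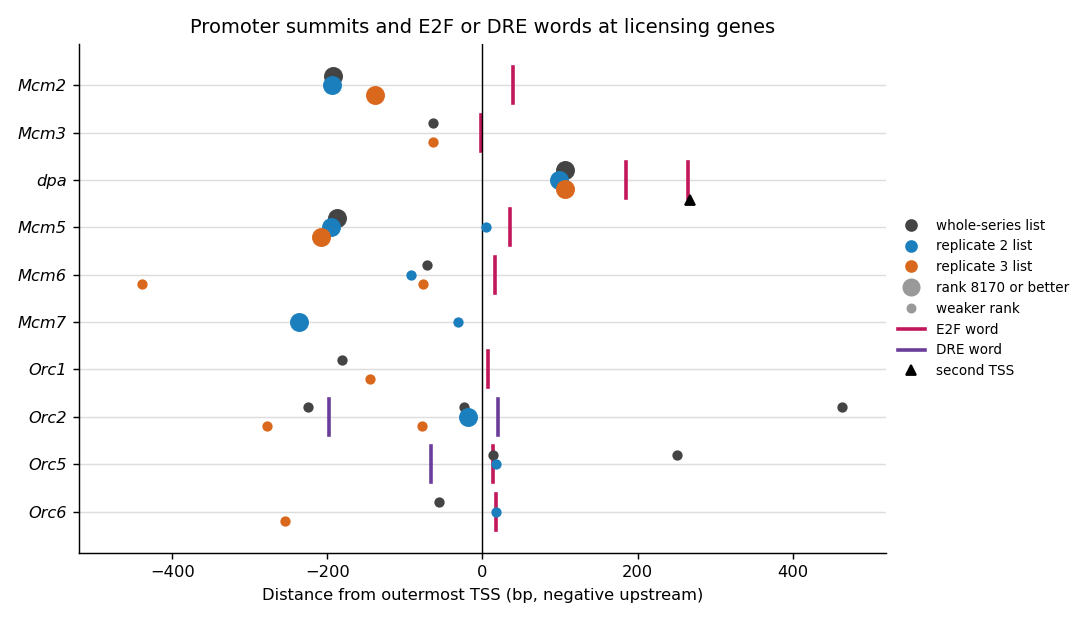
Positions of promoter summits (circles, coloured by list, large for rank 8170 or better) and of E2F and DRE words (bars) at the 10 licensing genes, in bp from the outermost TSS with negative values upstream; the triangle marks the second TSS of dpa. The E2F words of Mcm2 and Mcm5 lie downstream of the TSS while their IDR summits lie 193 and 187 bp upstream.

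The lists differ in what they hold. The authors deposited 30000 peaks for each replicate, 30000 for both replicates together (the whole-series list) and 8170 in an IDR list. IDR is the irreproducible discovery rate, which aims to keep peaks whose ranks repeat between replicates. Peak signal is the authors' own value in units they did not state here, so it is compared within a list only, and rank 1 is the highest signal. The lists give no read counts, so depth is unknown. The lowest IDR signal was 150.5. Over 3068 IDR promoter summits the median signal was 298.2. Of these summits, 2700 had a match within 100 bp in both replicates, so a place in the IDR list does not show agreement at each peak. The IDR peaks of Mcm2, dpa and Mcm5 had the same signal and rank in the whole-series list. The IDR and whole-series lists are therefore not separate evidence for these genes.

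Of the 10 licensing genes, 3 had an IDR promoter summit, against 26.9% of all protein-coding genes. All 3 encode MCM subunits: Mcm2, dpa and Mcm5. None of the 4 ORC genes had one. With summits inside the gene added, the count stayed at 3, against 31.9% of all genes. In the longer whole-series list 9 of 10 had a promoter summit, all but Mcm7, against 49.1%. The replicate 2 list gave 8 of 10, against 48.5%, without Mcm3 and Orc1. The replicate 3 list also gave 8 of 10, against 50.2%, without Mcm7 and Orc5. With summits inside the gene added, these counts stayed at 9, 8 and 8, against 52.4%, 58.3% and 52.9%. Each gene had a promoter summit in at least 1 list, against 59.8% of all genes. The share in the IDR list was thus near the background, and no test was made of any share. The lists of 30000 peaks include calls with a low −log10 q, and the shares of all genes count such calls too. In the whole-series list it was 0.53 at Orc6 and 1.09 at Mcm3, and at the ceiling of 4.355 at Mcm2, dpa, Mcm5 and Orc2. In replicate 2 it was 0.18 at Orc6, 0.52 at Mcm6 and 0.71 at Orc5.

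**Figure D2:**
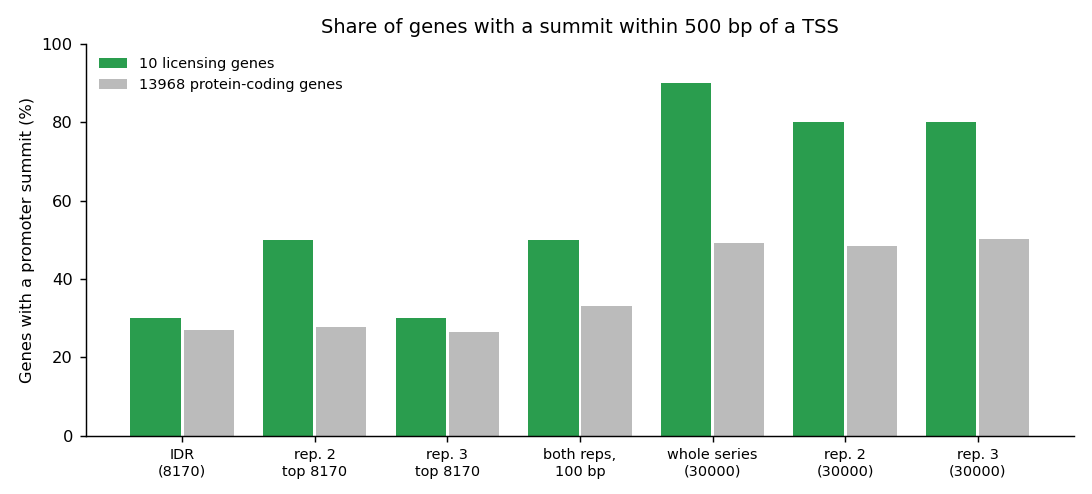
Share of genes (%) with a summit within 500 bp of a TSS, for the 10 licensing genes (green bars) and all 13968 protein-coding genes (grey bars), by peak list. The bars are close in the IDR list, at 3 of 10 genes against 26.9%, and apart in the whole-series list, at 9 of 10 against 49.1%.

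Mcm2, a helicase subunit, had the highest signal of the 10. The gene (FBgn0014861) lies at chr3R:8264970-8267924 on the plus strand. Its IDR peak covered chr3R:8264508-8265007, 500 bp, with the summit at 8264777, 193 bp upstream of the TSS. The signal was 776.7 and the rank 1297, so 15.9% of IDR peaks were stronger. In replicate 2 the summit was at 8264776, with signal 402.7 and rank 620. In replicate 3 it was at 8264831, with signal 369.2 and rank 2119. Both replicates placed it among their strongest 8170 peaks, with a −log10 q at the ceiling of each list, 4.15 and 4.49.

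Mcm2 ranked lower in replicate 3 than in replicate 2. Its rank number in replicate 3 was 3.42 times that in replicate 2. Of 2700 IDR promoter summits with a match within 100 bp in both replicates, 1.63% had a ratio at least that high in this direction, and the median ratio was 1.02. The summits of the replicates were 55 bp apart at Mcm2, where the median was 24 bp and 19.9% were at least as far apart.

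**Figure D3:**
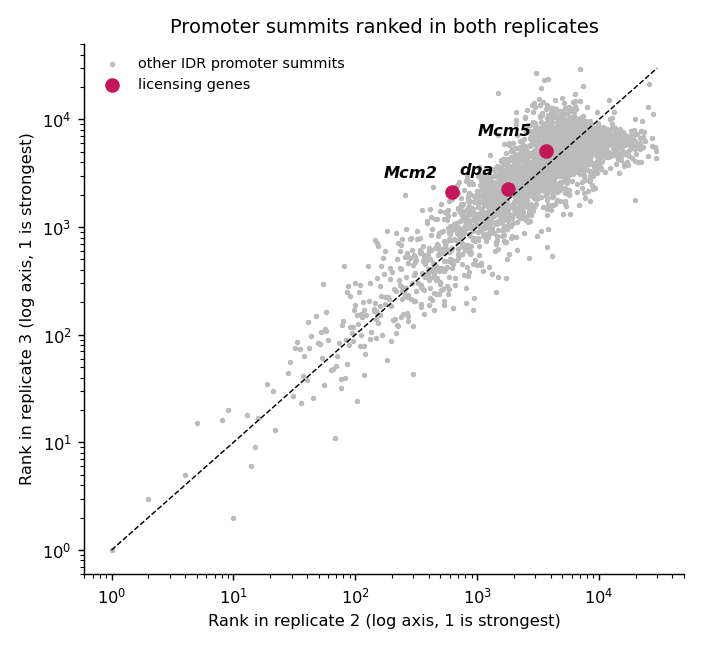
Rank in replicate 3 against rank in replicate 2 (log axes, 1 is the strongest peak) for 2700 IDR promoter summits matched within 100 bp in both replicates; grey points are other genes, coloured points licensing genes, and the dashed line marks equal ranks. Mcm2 lies above the line, at rank 620 in replicate 2 and 2119 in replicate 3.

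The same Mcm2 peak also lay at the promoter of RPA1, which encodes the large subunit of the single-stranded DNA binding complex RPA. RPA1 is transcribed the other way from a TSS at 8264451, and the TSSs are 519 bp apart. The summit was 326 bp upstream of RPA1 and 193 bp upstream of Mcm2. The lists do not assign the peak to either gene. By signal its neighbours among IDR promoter summits were NHP2 (777.7) and the SH3PX1 and vsg summit (777.1) above it, and Cerk (775.9) and the summit of CG3744, CG11089 and CG31381 (774.7) below it.

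The gene dpa, the fly Mcm4, had the next signal. It (FBgn0015929) lies at chr2R:7496702-7500145 on the minus strand, with TSSs at 7500145 and 7499877. The IDR summit at 7500039 was 106 bp inside the gene in the 5′ UTR of the longer transcripts, and 162 bp upstream of the second TSS. The signal was 555.4 and the rank 2054, with 26.1% of IDR promoter summits stronger. Replicate 2 gave 206.8 at rank 1798 and replicate 3 gave 351.7 at rank 2237, with summits 8 bp apart. Ranks differed by a ratio of 1.24, which 36.6% of matched summits reached or passed. The peak was shared with didum, which encodes myosin V and starts 2 bp away on the other strand, with the summit 108 bp upstream of it.

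Mcm5 was the weakest of the 3. The gene (FBgn0017577) lies at chr3R:10788524-10791150 on the plus strand, and its IDR summit at 10788337 was 187 bp upstream. The signal was 291.9 and the rank 4233, close to the median of IDR promoter summits, 51.0% of which were stronger. Replicate 2 gave 115.5 at rank 3658 and replicate 3 gave 166.5 at rank 5128, with summits 13 bp apart. Replicate 2 also had a weaker summit 4 bp inside the gene, with signal 43.9. The IDR summit was nearer to Art1, an arginine methyltransferase gene on the other strand, at 111 bp upstream of its TSS.

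All 3 IDR summits were therefore shared with a divergent neighbour. Of IDR promoter summits, 36.4% (1117 of 3068) lay within 500 bp of TSSs of 2 or more protein-coding genes, in any orientation. That share counts summits, not genes. A shared summit serves several genes, so the share of genes with a shared summit is higher, and it was not counted. Of the 10 licensing genes, 6 had a divergent protein-coding TSS within 1000 bp, against 35.2% of protein-coding genes. The other 3 were Mcm6, Orc2 and Orc5.

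The remaining MCM genes had weak summits or a summit in 1 replicate. Mcm3 (FBgn0284442, chrX:5323855-5326738, plus strand) had a whole-series summit 64 bp upstream with signal 56.2 at rank 18277. Replicate 3 had it at the same base with signal 34.2 at rank 20545, and replicate 2 had none. Mcm6 (FBgn0025815, chrX:6674387-6677176, plus strand) had a whole-series summit 72 bp upstream with signal 63.1. It was also listed in replicate 2 with signal 27.1 and in replicate 3 with signal 27.9, at summits 15 bp apart. Both were weak calls, with a −log10 q of 0.52 in replicate 2 and 1.14 in replicate 3. That peak was shared with CG3198, 342 bp upstream of its TSS. A weaker summit lay 439 bp upstream of Mcm6 in replicate 3 (23.6), but was nearer to CG3198, 25 bp inside that gene. Another lay 1928 bp inside Mcm6, in a coding exon, in replicate 2 (17.7). Both whole-series values were below the median of 108.5 over whole-series promoter summits.

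Mcm7 had peaks in replicate 2 alone. The gene (FBgn0020633) lies at chr3L:8891596-8894310 on the plus strand. Its stronger summit, at 8891359 and 237 bp upstream, had signal 65.6 at rank 6540 of replicate 2, with −log10 q at the ceiling of 4.15. Another, 32 bp upstream, had signal 22.4. The nearest replicate 3 summit was 4066 bp away and the nearest whole-series summit 8137 bp away. Among 3112 promoter summits in the strongest 8170 peaks of replicate 2, 232 (7.46%) had no replicate 3 summit within 500 bp. In the reverse direction 183 of 3081 (5.94%) had none.

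**Figure D4:**
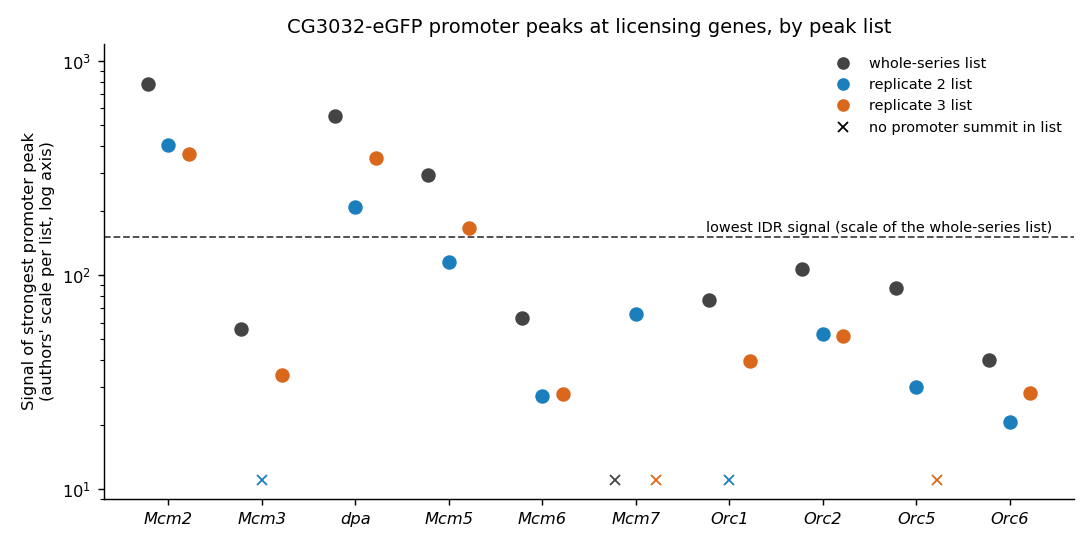
Signal (log axis, the authors' scale) of the strongest promoter summit of each licensing gene in the whole-series, replicate 2 and replicate 3 lists; the dashed line is the lowest IDR signal and applies to the whole-series list, and crosses mark lists with no promoter summit. Mcm2, dpa and Mcm5 lie above the line at 776.7, 555.4 and 291.9, and no ORC gene passes 106.7.

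The ORC genes had summits in the whole-series list that stayed below the lowest IDR signal. Orc2 (FBgn0015270, chr3R:13964885-13967075, plus strand) had the strongest, 225 bp upstream with signal 106.7 at rank 11079, and others at 24 bp upstream (83.0) and 464 bp inside (30.0). In replicate 2 the summit was 19 bp upstream with signal 52.8 at rank 8085, among its strongest 8170. In replicate 3 the strongest was 278 bp upstream with signal 52.2 at rank 15040, and a weaker one lay 78 bp upstream. The replicates thus ranked different positions first at Orc2. The upstream summit was within 500 bp of Kots as well, 486 bp upstream of it.

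Orc5 (FBgn0015271, chr2L:13829837-13831576, plus strand) had a whole-series summit 14 bp inside the gene with signal 87.3, and weaker ones 251 and 564 bp inside in coding exons. Replicate 2 had it 18 bp inside with signal 29.9, and replicate 3 had none. The peak was shared with Arpc1, an Arp2/3 complex gene whose TSS is 96 bp away. Orc1 (FBgn0286788, chr2R:7522437-7525716, minus strand), the ATPase subunit whose level follows the cell cycle in flies, had a summit 181 bp upstream with signal 76.8. Replicate 3 had it 145 bp upstream with signal 39.7, and replicate 2 had none. Orc6 (FBgn0023180, chr2R:9845458-9846485, minus strand) had the lowest whole-series signal, 40.1, at 56 bp upstream. Its summit was 18 bp inside the gene in replicate 2 (20.7) and 255 bp upstream in replicate 3 (28.1), where it fell in Prosalpha7, a proteasome gene.

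Of the 14 whole-series summits, 8 lay upstream of the genes, 2 in a 5′ UTR and 3 in coding exons. Another 1 was at the last base of Mcm3, in its 3′ UTR, which CG3309 also covers. The same share over all whole-series summits was not counted. Of all IDR promoter summits, 80.6% lay upstream of the nearest TSS, a share from another list and for promoter summits only. A promoter summit was found in both replicates within 100 bp at 5 of 10 genes (Mcm2, dpa, Mcm5, Mcm6 and Orc2), against 33% of protein-coding genes. The match at Mcm6 rests on weak calls, with a −log10 q of 0.52 in replicate 2. Among the strongest 8170 peaks, replicate 2 held promoter summits of 5 licensing genes (27.7% of all genes) and replicate 3 of 3 (26.6%). Replicate 2 added Mcm7 and Orc2.

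For 5 of the other 7 genes the nearest IDR summit lay at the promoter of another gene. The IDR summit nearest to Mcm3 was 1151 bp upstream at Rnp4F, an RNA-binding protein gene, with signal 398.8. The one nearest to Orc1 was 3885 bp upstream, at Drat, with signal 1584. Those nearest to Mcm6 and Orc5 were 3888 and 3405 bp downstream of the TSS, at ND-ASHI with Fum1 and at Polr2C with PolG2 and GatC. The one nearest to Orc6 was 12453 bp from its TSS, at hebe. Those nearest to Mcm7 and Orc2, 9645 and 9456 bp away, were at no protein-coding promoter.

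Other genes of the replication pathway had IDR promoter summits at a share like that of all genes: 12 of 37 (32.4%, background 26.9%), with a median signal of 292.2. Among loading factors 2 of 5 had one, dup at 306.4 and geminin, the inhibitor, at 226.5. The remaining ORC subunits Orc3 and Orc4 and the loader Cdc6 had none. Among firing factors 4 of 11 had one: the GINS subunit Psf1 (357.8), chif, the activator of Cdc7 (335.7), the kinase Cdc7 (278.1) and the helicase cofactor Cdc45 (160.2). Among fork proteins 5 of 17 had one, and RPA1 held the highest signal through the peak it shares with Mcm2. The others were the primase subunit Prim1 (354.5) and the polymerase genes PolE1 (199.7), PolD1 (169.9) and PolA1 (168.4). PolD1 had no promoter summit in replicate 3. For nucleotide supply, 1 of 4 had one, RnrS, the small subunit of ribonucleotide reductase, at 1102. The IDR summits at dup, Psf1, Prim1 and PolD1 lay nearer to TSSs of SRPK, Sac1, CG7083 and Hip14, in that order. The lists do not assign these peaks to either gene.

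Genes that control entry into S phase had IDR promoter summits at 5 of 11, against 26.9% of all protein-coding genes. These were Dp (1122) and E2f1 (372.2), which form the E2F1 factor, Rbf2 of the retinoblastoma family (602.5), Cdk2 (371.7) and the Cdk inhibitor dap (279.4). In the whole-series list all 11 had a promoter summit, as did 26 of the 37 pathway genes, against 49.1% of all protein-coding genes. Mcm2 and dpa stood above all of the loading and firing factors in IDR signal, and below RnrS and Dp. The dpa signal was also below those of RPA1 and Rbf2. The Rbf2 summit lay nearer to a TSS of CG32856, and the Cdk2 summit was also within 500 bp of a TSS of mir-995.

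**Figure D5:**
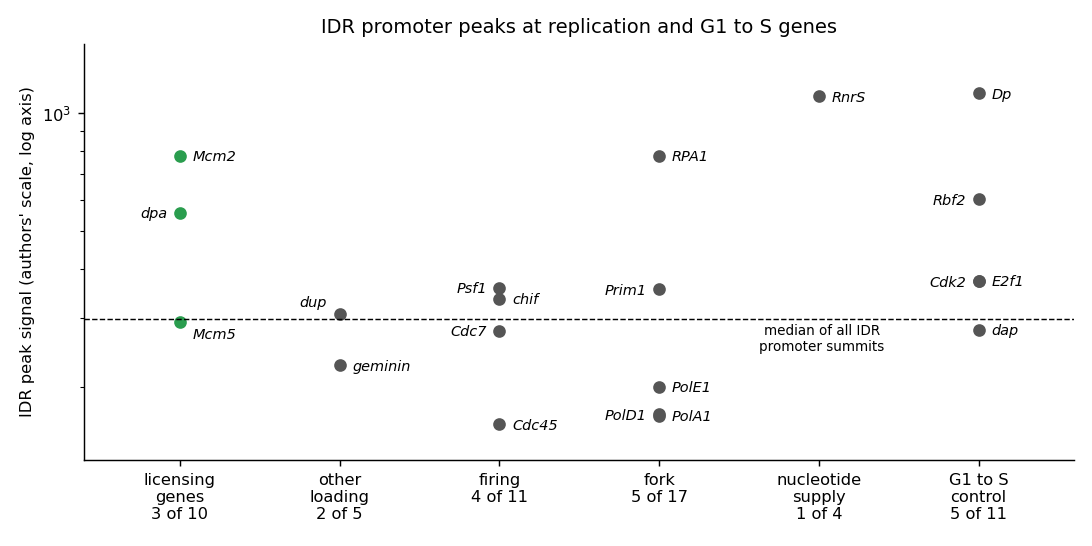
IDR peak signal (log axis, the authors' scale) of every licensing, replication pathway and G1 to S gene with an IDR promoter summit, by role, with the number having one below each column; the dashed line is the median over all IDR promoter summits, 298.2. Mcm2 and RPA1 share 1 peak at 776.7, and Dp and RnrS are higher at 1122 and 1102.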

How the data were processed

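The samples were 2 biological replicates of 1 line, for which the labels give a fragment size range of 200 to 800 bp. The authors deposited 4 narrowPeak lists on dm6, from the 2 replicates singly, from both together and after IDR thresholding. The signal of each peak was deposited by the authors on an undefined scale, and so was its −log10 q, which has a ceiling in each list. The summit is the start plus the offset the authors deposited. For the aligner, the peak caller and the IDR cutoff, nothing was found (not given in the sources used here). Depth is unknown.

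Summits were placed on the Ensembl BDGP6.54 annotation, release 115, and letters were read from the RefSeq copy of the same assembly. Distances are signed along the gene, with the TSS at 0. A summit was counted for every gene within 500 bp, so 1 peak can serve several genes. Words were searched on both strands in 201-bp windows around summits and from 250 bp before to 50 bp after TSSs. All 48 symbols of the pathway lists matched. Python 3.11.15, pandas 2.3.3, numpy 2.4.6 and matplotlib 3.10.9 were used, and the counting was tested on simulated data. No test was made, since there is 1 group and peak lists carry no counts. The genes, lists and words were chosen with earlier results of these data known. All 10 genes were named, with each gene sharing a summit with them, the pathway genes having an IDR promoter summit, and the promoter summits closest in signal to Mcm2. Alternatives were the TSS window, the 4085 strongest IDR peaks, each list in turn, 1 gene per peak, the motif window and the matching distance.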

Additional observations from a re-analysis of the deposited data

How the results depend on the processing

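The count of 3 licensing genes with an IDR promoter summit was 3 with TSS windows of 200 bp (19.5% of all protein-coding genes) and 1000 bp (30.6%) and with peak intervals overlapping the TSS (15.9%). It was 2, Mcm2 and dpa, among the 4085 strongest IDR peaks (14.8%) and with 1 gene per peak (19.7%). Over the strongest 8170 peaks of a single replicate it ranged from 3 without replicate 2 (26.6%) to 5 without replicate 3 (27.7%), which adds Mcm7 and Orc2. It was 9 in the whole-series list (49.1%), which holds more peaks. With summits inside genes added, the values were also 3 to 5 over single replicates and 9 in the whole-series list (52.4%). For the single replicates with summits inside genes, the share of all genes was not counted. The pathway count of 12 became 7 with a window of 200 bp, 6 among the 4085 strongest peaks, 6 with peak intervals overlapping the TSS, 7 with 1 gene per peak and 26 in the whole-series list. By construction these settings narrow the window, take fewer or more peaks, or take fewer genes per peak. It was 11 without replicate 2 and 13 without replicate 3.

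The median share of stronger peaks at the IDR genes, 25.1%, was 5.99% in the replicate 2 list and 7.45% in the replicate 3 list, which are longer than the IDR list. Genes with matched summits in both replicates numbered 5 within 100 bp, against 33% of protein-coding genes. They numbered 5 within 200 bp, 3 within 50 bp and 3 among the strongest 8170 peaks of each. The share of all genes was not counted at those other settings. The DRE count at IDR genes was 0 within 50, 100 and 200 bp of the summit, and 0 for the core ATCGAT within 100 bp, although Mcm5 held that core in its promoter window. The count was 2 when every gene's strongest summit was used, a setting chosen after seeing the data. The Orc6 summit moved from 56 bp upstream (−56) to 18 bp inside the gene (18) in replicate 2, and the cause was not tested. No paired analysis was possible because there is 1 group. The lists carry no counts, so no limit of detection can be given for the genes without a summit.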

Other observations

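CycE encodes the cyclin that partners Cdk2 at the start of S phase. Its promoter summits, within 500 bp of a TSS, differed widely between the replicate lists. The gene was picked out after its values were seen. The CycE promoter summit had signal 721.0 at rank 750 in the replicate 3 list, 464 bp upstream of a TSS, close to the 500 bp limit. Summits just beyond that limit in the other lists were not looked for. No promoter summit was listed in replicate 2, and the whole-series promoter summit, at another position 98 bp upstream of a TSS, had signal 40.5 at rank 23643. Orc3, another ORC subunit, likewise had a promoter summit in replicate 3 alone, with signal 103.1 at rank 8393.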
